A study of Mus musculus with 3 samples.

Results

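Brain vessels of connexin 30-deleted mice (Cx30-/-) were compared with wild-type (WT) vessels of mixed C57BL6-BALB/c background by RNA sequencing, over all genes. The comparison took 2 of the 3 libraries of the study, and the values of the other library, C57BL6 WT, are printed beside it for named genes. Each library was made from the vessels of 3 pooled mice aged 3 months, all males by the study's methods, after isolation from whole brain. The Cx30-/- mice lacked the gene in every tissue and not in astrocytes alone, whereas neither WT group carried a deletion. The labels give the Cx30-/- library a C57BL6 background, while the study's methods give these mice the mixed C57BL6/Balbc background of the WT library compared here. Of 29920 genes in the files, 14891 had at least 50 normalized counts (read counts divided by a size factor of the library) in at least 1 of the 2 libraries, and these were compared. A gene was taken as higher or lower in Cx30-/- vessels when the ratio of its normalized counts was at least 2.

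With 1 library in each group, no difference could be set against a spread between animals, and no test was made. The intervals given are 95% exact binomial intervals of the 2 read counts. They cover counting error only, and reads without molecular identifiers are not independent molecules. The genotype, any difference in genetic background, the mice pooled and the vessel preparation cannot be told apart in any value below. The study itself states that background strongly affects transcription. In bulk RNA, fewer cells of a type and less RNA per cell cannot be told apart either. Read counts summed to 50375426 over the transcripts of the Cx30-/- library, 53484865 for C57BL6-BALB/c WT and 60725557 for C57BL6 WT. A read can count on several transcripts of a gene, so these sums are not numbers of reads. The library totals by which the authors divided counts were smaller, 20654144, 21170766 and 24830975. Values in all 3 libraries are always printed in this order.

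Connexin 30 forms gap junction channels and hemichannels in astrocytes and is found in the endfeet with which these cells cover brain vessels. The vessel wall beneath is made of endothelial cells, whose tight junctions and transporters form the blood-brain barrier, of pericytes along capillaries and of smooth muscle cells around arterioles and arteries. A vessel preparation can also carry endfeet, nerve endings, meningeal and ependymal cells, and blood that stayed in the lumen.

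The deleted gene, Gjb6 (ENSMUSG00000040055), lies on chromosome 14 of the mouse assembly GRCm38 (57123303 to 57133611, minus strand). Its read counts were 96, 2246 and 2899. The log2 ratio of Cx30-/- to C57BL6-BALB/c WT vessels was -4.59 (-4.90 to -4.30), and the remaining reads lay on 1401 of the 1759 bases of its transcript. Gjb6 was thus low in the library labelled Cx30-/- alone.

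Most genes differed little between the libraries compared. The log2 ratios of the 14891 genes had a median of 0.004, with the 5th percentile at -0.98 and the 95th at 0.93, and 10581 genes (71.1%) lay within 1.5-fold. At least 2-fold higher in Cx30-/- vessels were 589 genes, 3.96% of those compared, and at least 2-fold lower were 705, or 4.73%. These percentages are the background against which the lists of cell classes and functions below are read. A gene that reached 50 normalized counts in the higher library alone had to differ, so where such members carry a list, its counts are also given over the members with at least 50 in both libraries. Among the 6189 genes with at least 1000 normalized counts, 153 were higher and 238 lower. Differences of 4-fold or more were found for 48 higher and 37 lower genes.

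**Figure D1:**
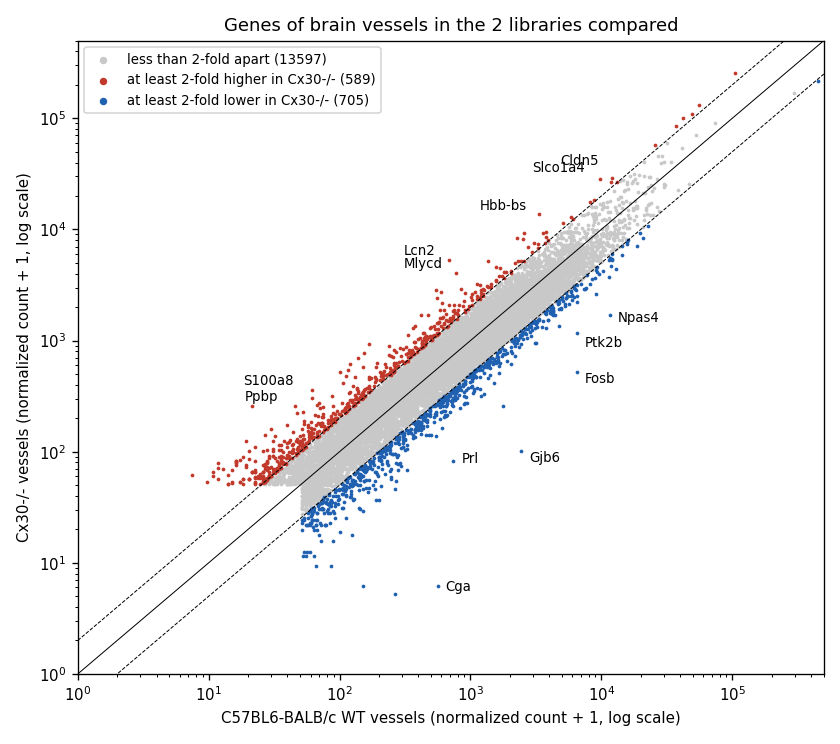
Normalized counts plus 1 of the 14891 genes in C57BL6-BALB/c WT vessels (horizontal, log axis) and in Cx30-/- vessels (vertical, log axis), 1 library of 3 pooled mice each. The solid line marks equal counts and the dashed lines a ratio of 2, with 589 genes above (red) and 705 below (blue), among them Gjb6 with 96 against 2246 reads.

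The preparation held its labelled tissue. Cldn5, the main tight junction claudin of brain endothelium (chromosome 16, 18776847 to 18778262), had 29047, 12122 and 25826 normalized counts. Rgs5, a regulator of G protein signaling that marks pericytes, had 40043, 21342 and 34209, and Acta2, the actin of smooth muscle, 15447, 18730.5 and 12709. Transcripts of other cells were present as well. Slc1a2, the glutamate transporter of astrocytes, had 16429, 22531 and 21962, and Snap25, a protein of the neuronal release machinery, had 8042, 13657 and 9137.

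Endothelial genes were higher in Cx30-/- vessels as a class. All 27 genes of the endothelial list had a log2 ratio above 0, with a median of 0.86, and 10 of them (37.0%) were at least 2-fold higher and 0 lower. The summed normalized counts of the list were 327764, 170683 and 272765, so that C57BL6 WT vessels lay nearer to Cx30-/- than to C57BL6-BALB/c WT vessels. Slco1a4 on chromosome 6 (141805440 to 141856199), an organic anion transporter of the barrier, had 28653, 9777 and 17533 normalized counts. Its log2 ratio of 1.55 (1.52 to 1.59) was the largest of the list. Egfl7, a secreted protein of angiogenic endothelium, had 9281, 3576 and 6079, with a log2 ratio of 1.38. Emcn, a sialomucin of capillaries and veins, had 2628, 1026 and 2267, and the transcription factor gene Erg had 3259, 1433 and 2307. Below 2-fold were the adhesion molecules Pecam1 (0.83) and Cdh5 (0.78) and the VEGF receptor genes Flt1 (0.88) and Kdr (0.78). Against C57BL6 WT vessels, the median of the same 27 genes was 0.24.

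The segments of the vascular tree did not stand at the same level. The venous list had 5 of 11 genes at least 2-fold higher, with a median log2 ratio of 0.93. Tmem252 had 2735, 593 and 2531 normalized counts, a log2 ratio of 2.21 (2.07 to 2.34). Lrg1, a secreted glycoprotein of venules and of the acute phase response, had 2409.7, 551 and 1287, a log2 ratio of 2.13. Slc38a5 (1.23) and the interleukin-1 receptor gene Il1r1 (5158, 2409.8 and 3569.7 normalized counts) also passed 2-fold, while Ackr1, the chemokine receptor of venular endothelium, stood at -0.12. In the arterial list, 4 of 14 genes were higher, with a median of 0.71. The Notch ligand gene Dll4 on chromosome 2 (119325784 to 119335962) had 2923, 851 and 2151, a log2 ratio of 1.78 (1.67 to 1.90), and Vegfc 977, 370.5 and 869, a log2 ratio of 1.40. Gja5, the connexin of arterial endothelium, was at 0.20 and Efnb2 at 0.34. In the capillary list 2 of 11 genes were higher, with a median of 0.49. These were the monocarboxylate transporter gene Slc16a1 (1.05) and the organic anion transporter gene Slc22a8 (1.04), whereas Tfrc, the transferrin receptor, had 6509, 6391 and 6332 normalized counts. No test compared the segments with each other.

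The mural cells divided. Of 17 pericyte genes, 16 had a log2 ratio above 0 and 3 were at least 2-fold higher, with a median of 0.70. The hypoxia-inducible subunits of the respiratory chain Cox4i2 (293, 124 and 276) and Ndufa4l2 (1160.2, 554 and 955) and Higd1b (1019.7, 441 and 699) passed 2-fold. Pdgfrb, the receptor through which endothelium recruits pericytes, had 7392, 4353 and 7063. For vascular smooth muscle, by contrast, the median of 26 genes was 0.15, with 2 higher and 0 lower. Of the 26 genes, 16 had a ratio above 0 and 10 below. Contractile genes lay on both sides, with log2 ratios of 0.26 for Cald1, 0.17 for Tpm1, 0.15 for Myl9, -0.10 for Tagln, -0.14 for Myh11, -0.28 for Acta2 and -0.75 for Cnn1. Casq2, a calcium-binding protein of the sarcoplasmic reticulum, had 1018, 497 and 913, and the olfactory receptor gene Olfr558 789.9, 389.9 and 486, and these were the 2 genes past 2-fold. Against C57BL6 WT vessels the smooth muscle median was 0.39, above that of the pericyte list at 0.13. The 22 measured genes of perivascular and meningeal fibroblasts had a median of 0.43, with Slc47a1 (1.17) the only gene of the list past 2-fold.

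**Figure D2:**
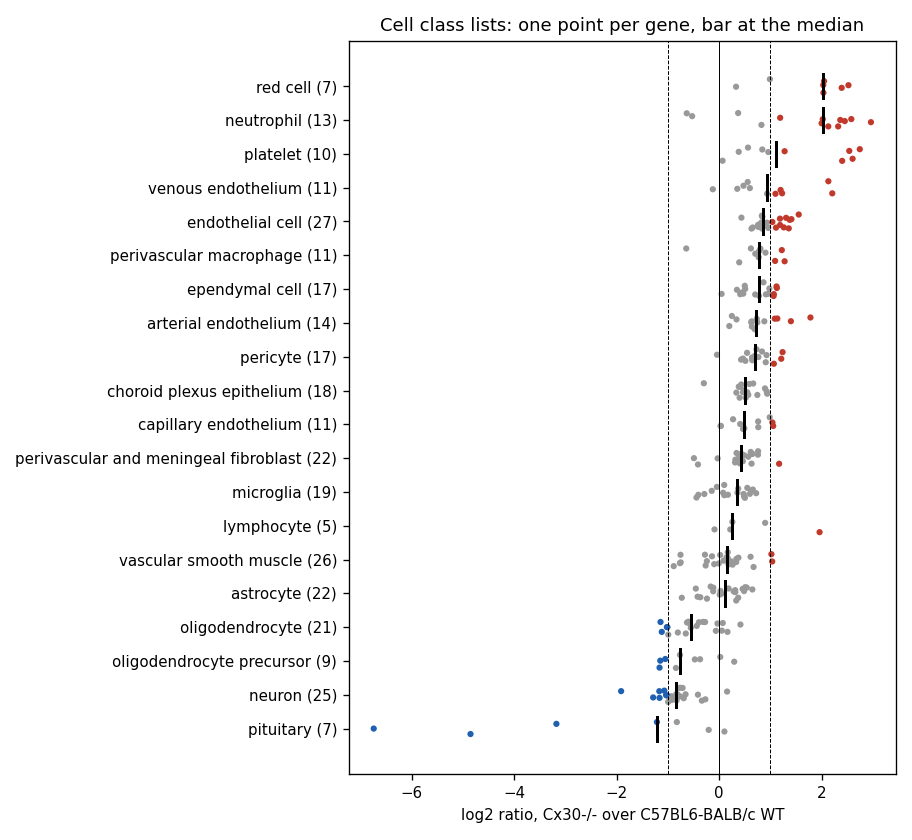
Log2 ratio of Cx30-/- to C57BL6-BALB/c WT vessels for each gene of 20 cell class lists that passed the count minimum (number in brackets). Points are genes (red at least 2-fold higher, blue at least 2-fold lower), bars are list medians, and dashed lines mark a ratio of 2. Blood and endothelial lists lie above 0, the neuron and pituitary lists below.

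Barrier functions were read in the same way. Of 27 solute carriers of the barrier, 7 were at least 2-fold higher and 0 lower, with a median log2 ratio of 0.65. Besides Slco1a4, they included the zinc transporter gene Slc39a8 (1843, 733 and 1298 normalized counts), the iron exporter gene Slc40a1 (2700.3, 1197 and 2695) and the thiamine transporter gene Slc19a3 (1751, 788 and 1379). The glucose transporter gene Slc2a1 had 45339, 28794 and 37284, a log2 ratio of 0.65 (0.63 to 0.68). Of 11 ABC transporters, 3 were higher. These were Abcb1a, which encodes the efflux pump P-glycoprotein (11514, 5055 and 8577), Abcg2 (3657, 1801 and 3167), which encodes the other main drug efflux pump of the barrier, and Abcc6 (822, 339 and 623). Abcc5 was nearly 2-fold lower, at a log2 ratio of -0.99.

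Among 21 tight junction genes, Cldn5 alone (4.76%) passed 2-fold, beside 3.96% higher over all genes. Its log2 ratio was 1.26 (1.23 to 1.29), and the list median was 0.50. Ocln was at 0.82, Jam2 at 0.83 and Tjp1, which encodes the scaffold ZO-1, at 0.50, while Cldn12 was at -0.48 and the epithelial junction gene Cgn at -0.97. None of 14 adherens junction genes passed 2-fold, and their median was 0.12. None of 18 genes of transcytosis and caveolae passed either. Their median was 0.47, with Cav1, the coat protein of caveolae, at 7459, 4877 and 6584 normalized counts, and Plvap, a diaphragm protein of leaky vessels, at 600.1, 682 and 927. The 29 genes of the basement membrane and matrix had a median of 0.40, with 0 past 2-fold and Nid2 the highest at 0.97.

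Of the signaling pathways of the barrier, the Wnt list had 5 of 29 genes at least 2-fold higher and 1 lower, with a median of 0.58. The higher genes included the transcription factor genes Foxq1 (1.32) and Foxf2 (1.21), the secreted antagonist gene Dkk2 (1.08) and the receptor gene Fzd6 (1.01). Target genes of the pathway in endothelium were at 0.81 for Lef1, 0.56 for Apcdd1 and 0.37 for Axin2. The lower gene was Wnt7a, a ligand made by neurons and glia, with 70.3, 153 and 148 normalized counts. In the Notch list, Dll4 and Nrarp, a feedback inhibitor that Notch itself induces, were the only 2 of 17 genes past 2-fold. Nrarp had 1873, 585 and 1343, a log2 ratio of 1.68 (1.54 to 1.82), while the effector genes Hey1, Hey2 and Hes1 were at 0.64, 0.21 and 0.45. Of 20 genes of the VEGF, angiopoietin and Tie systems, Vegfc was the only one past 2-fold (5%, beside 3.96% higher over all genes). The median was 0.67, with Tek at 0.86 and Vegfa, made mainly outside the endothelium, at -0.55. In the TGF-beta and BMP list of 25 genes, 1 gene (4%) was higher, the receptor gene Tgfbr2 (1.03), and 1 (4%) lower, near the shares over all genes. The median was 0.46.

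**Figure D3:**
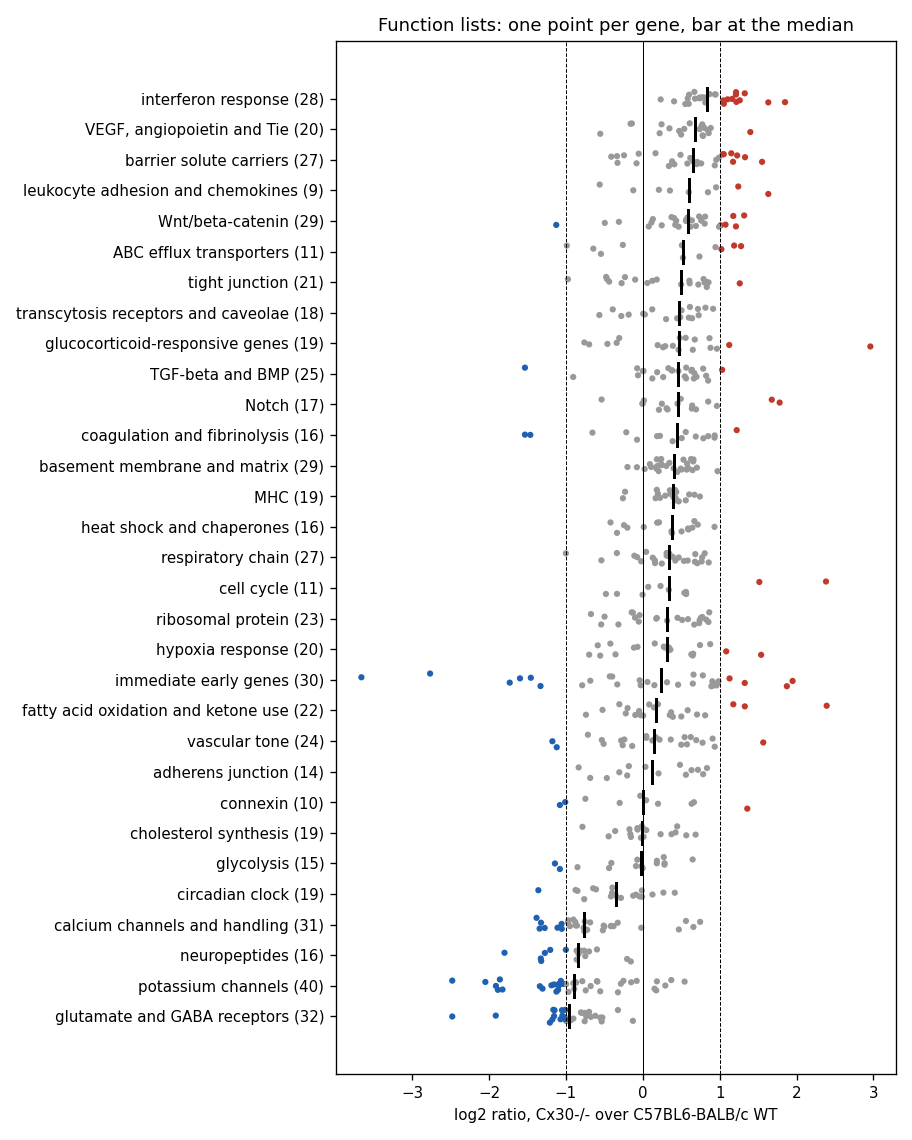
Log2 ratio of Cx30-/- to C57BL6-BALB/c WT vessels for each gene of the function lists that passed the count minimum (number in brackets), drawn as for the cell classes. The interferon list has the highest median, 0.84, and the glutamate and GABA receptors the lowest, -0.96.

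Of 24 genes of vascular tone, 1 (4.17%) was higher and 2 (8.33%) lower, near the 3.96% and 4.73% over all genes. Edn1, the vasoconstrictor peptide of endothelium, had 2685, 906 and 2434 normalized counts, a log2 ratio of 1.57 (1.45 to 1.68). Lower were Ptgs2, the inducible prostaglandin synthase (1424, 3093 and 1179), and the adrenergic receptor gene Adra1d (70.3, 159 and 137). Nos3, the endothelial nitric oxide synthase, stood at 0.57. Of 16 genes of coagulation and fibrinolysis, F13a1 was higher (1.22), and the lower genes included the plasminogen activator gene Plau (-1.46). Of 10 measured connexins and pannexins, with Gjb6 itself left out, Gjb2 was higher and Gjc3 and Gjb1 lower. Gjb2 encodes connexin 26, the partner with which connexin 30 forms mixed channels, and its gene lies next to Gjb6 (57098600 to 57104702 on chromosome 14). It had 2286, 891 and 1099 normalized counts, a log2 ratio of 1.36 (1.24 to 1.48). Gjc3 (-1.08) and Gjb1 (-1.01) are connexins of oligodendrocytes, and Gja1, the other main astrocyte connexin, was at 0.04 (-0.02 to 0.10).

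Neuron genes lay on the other side. Of 25 neuron genes, 24 had a log2 ratio below 0, with a median of -0.84, and 7 (28.0%) were at least 2-fold lower and 0 higher. Summed normalized counts of the list were 250684, 440896 and 279540, the C57BL6-BALB/c WT library holding the most. Most of each sum came from 1 gene, Snhg11, with 170560, 296246 and 166643. Gad2, the enzyme of GABA synthesis, had 654, 1595 and 872, and Slc17a6, a vesicular glutamate transporter of subcortical neurons, had 478, 1075 and 797. Stmn2 was the exception to the direction, at 0.15. Astrocyte genes, in comparison, had a median of 0.11 with 0 of 22 past 2-fold and 14 above 0. Gfap and Aqp4 were at -0.24 and -0.42, and Sox9 and Glul at 0.65 and 0.54. The neuron list was thus lower, and the endothelial and pericyte lists higher, between the same libraries, and the part of co-isolated neuronal material in the other results was not tested.

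Receptors and channels of neurons lay on the same side, with some genes also in the neuron list. All 32 glutamate and GABA receptor genes had a ratio below 0, with a median of -0.96, and 14 (43.8%) were at least 2-fold lower. Gabrb2, a subunit of the GABA-A receptor, had 162, 608 and 309 normalized counts, a log2 ratio of -1.91 (-2.18 to -1.65). Grin1, the obligatory subunit of NMDA receptors, had 5526, 11603 and 7289, a log2 ratio of -1.07. Grin2a was lowest of the list at -2.48, from 17, 92 and 65 reads, with a wide interval of -3.32 to -1.72. Of 40 potassium channel genes, 17 (42.5%) were lower and 0 higher. Kcnc1, a channel of fast-spiking neurons, had 2999, 7586 and 4864 normalized counts (log2 ratio -1.34). Of the 40 genes, 6 had a ratio above 0, among them the astrocyte channel gene Kcnj10 (0.29) and the pericyte channel gene Kcnj8 (0.54). Over the members with at least 50 in both libraries, 13 of 31 receptor genes and 14 of 37 potassium channel genes were lower. Of 31 genes of calcium channels and calcium handling, 7 were lower and 0 higher. The list ran from the AMPA receptor partner gene Cacng3 (-1.38) to Itpr3, a calcium release channel (0.75). Of 16 neuropeptide genes, 6 were lower and 0 higher, or 5 of the 14 with at least 50 in both libraries, and none had a ratio above 0. Penk, the precursor of enkephalins, had 1693, 4247 and 3992, and Crh, the corticotropin-releasing hormone, 30.4, 106 and 84.7.

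Oligodendrocyte genes had a median log2 ratio of -0.55 over 21 genes, 4 of them at least 2-fold lower. Against C57BL6 WT vessels their median was -0.97, and that of the neuron list -0.42. The lineage transcription factor gene Olig2 (157, 348 and 414 normalized counts) and the myelin regulator gene Myrf (342, 743 and 715) passed 2-fold, while the myelin protein genes Mbp (0.07) and Mobp (0.16) did not differ by as much as 1.5-fold. Of 9 precursor genes, 3 were lower, namely Tnr, Neu4 and Vcan. Microglial genes had a median of 0.36, with 0 of 19 past 2-fold, 14 above 0 and 5 below. They ran from Aif1 (-0.44) to the complement gene C1qb (0.72), with the homeostatic markers P2ry12 and Tmem119 at 0.10 and 0.10.

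Genes of blood cells had few reads apart from some with high counts, and many reached the count minimum in Cx30-/- vessels alone. Of the red cell list, 7 of 13 genes in the files passed the minimum and 5 were at least 2-fold higher, or 3 of the 5 genes with at least 50 normalized counts in both libraries. Hbb-bs, an adult beta-globin gene, had 13725, 3354 and 5652 normalized counts, a log2 ratio of 2.03. The neighbouring and similar gene Hbb-bt had 2839.8, 542 and 1166. Reads matching more than 1 place were removed by the authors, so that the levels of these globin copies are uncertain. Alas2, the erythroid enzyme of heme synthesis, has no such copy and had 1707, 418 and 799.9, a log2 ratio of 2.03 (1.87 to 2.19).

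Of 13 neutrophil genes that passed, 9 were higher, but 5 of these passed through the Cx30-/- library alone. Of the 8 genes with at least 50 normalized counts in both libraries, 4 were higher, namely Lcn2, Ngp, S100a8 and S100a9. S100a8 and S100a9, which form calprotectin, an abundant protein of the neutrophil cytosol, had 361, 60.5 and 121 and 611, 119 and 202 normalized counts. The granule protein genes Ngp and Camp had 272, 68.0 and 102 and 75.5, 15.1 and 23.6, Mmp8 had 81, 18 and 10 reads and Retnlg 74.5, 18.4 and 20.1 normalized counts, whereas Ltf (-0.53) and Fpr1 (-0.63) had ratios below 0. Mpo and Elane, made in immature neutrophils, had 4, 5 and 23 reads and 4, 1 and 5 reads. Lcn2 on chromosome 2 (32384633 to 32388252), which binds bacterial siderophores, had 5302, 682 and 4261. Its log2 ratio of 2.96 (2.84 to 3.08) came with a C57BL6 WT value close to that of Cx30-/- vessels, unlike S100a8 and S100a9. Lcn2 is an acute phase gene that endothelium and glia also express.

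Of 10 platelet genes that passed, 5 were higher, but 6 passed through the Cx30-/- library alone. Of the 4 genes with at least 50 normalized counts in both libraries, Pf4 alone was higher (1.28), and Itga2b, Itgb3 and Gp1bb were at 0.84, 0.56 and 0.07. The platelet chemokine gene Ppbp had 257, 44.3 and 142 normalized counts, a log2 ratio of 2.54 (2.06 to 3.05). The platelet tubulin gene Tubb1 had 79.7, 15.1 and 33.2, and the von Willebrand receptor subunit gene Gp9 had 65.0, 9.72 and 27.1. Over the members with at least 50 in both libraries, the red cell, neutrophil and platelet medians were 2.03, 1.41 and 0.70. Of lymphocyte genes, 5 of 15 in the files passed, and Gzma, a granule protease of cytotoxic lymphocytes, was the only one past 2-fold and passed through the Cx30-/- library alone (48, 12 and 42 reads). Cd3e had 8, 8 and 9 reads. Of 11 perivascular macrophage genes, 3 were higher. They were the mannose receptor gene Mrc1 (1061, 498 and 838), F13a1 and Pf4, of which Pf4 is also a platelet gene.

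The interferon response was higher in Cx30-/- than in C57BL6-BALB/c WT vessels in all 28 genes measured, with a median log2 ratio of 0.84, and 11 genes (39.3%) were at least 2-fold higher, or 9 of the 25 with at least 50 normalized counts in both libraries. The summed normalized counts of the list were 28661, 17091 and 28983, so that Cx30-/- and C57BL6 WT vessels were alike and C57BL6-BALB/c WT vessels lower. Xaf1 on chromosome 11 (72301629 to 72313733), an interferon-induced partner of an apoptosis inhibitor, had 1347, 374 and 635 normalized counts. Its log2 ratio was 1.85 (1.68 to 2.03), and it was the only gene of the list also past 2-fold against C57BL6 WT vessels (1.09). Irf7, the transcription factor that amplifies the response, had 1262, 564 and 1264, and the antiviral gene Oasl2 had 2037, 879 and 1795. Stat2, which carries the signal from the receptor, was at 0.23. The Ifit, Oas and Mx genes belong to families of similar copies, and their levels are uncertain for the same reason as the globins. None of 19 genes of antigen presentation by MHC molecules passed 2-fold, and their median was 0.40.

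Promoters of the list were searched for GAAANNGAAA, the core of the element bound by interferon-activated factors, on both strands of the 250 bases before the start site (RefSeq, GRCm38.p6). It was found in 978 of 32851 promoters (2.98%), and 3.46% of the 27025 genes with a promoter held it in at least 1 promoter. Of the 21 interferon genes compared that had a promoter in this set, 10 held it, with a median log2 ratio of 0.77, and 11 did not, with 0.94. A search for 1 exact core does not show which promoters lack the element, and its part in these ratios was not tested. The 60 bases around a match are shown for 4 members that hold it, with matches in capitals (overlapping matches run together, and TTTC letters mark the other strand) and each written along its gene, 5′ to 3′.
Cxcl10, chr5:92349068-92349127, minus strand: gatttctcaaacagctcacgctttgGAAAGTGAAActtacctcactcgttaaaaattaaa
Rsad2, chr12:26456538-26456597, minus strand: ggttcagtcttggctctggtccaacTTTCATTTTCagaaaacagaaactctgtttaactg
Ifit1, chr19:34640760-34640819, plus strand: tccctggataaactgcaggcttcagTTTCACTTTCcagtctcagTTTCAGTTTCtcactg
Isg15, chr4:156200862-156200921, minus strand: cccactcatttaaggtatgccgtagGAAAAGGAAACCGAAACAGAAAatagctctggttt
Cxcl10, a chemokine that draws activated T cells, had 83, 26 and 74 reads (log2 ratio 1.63). Rsad2, the antiviral enzyme viperin, was at 1.05, Ifit1, which binds foreign RNA, at 0.81, and the ubiquitin-like protein gene Isg15, whose stretch holds the most matches, at 0.80.

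Inflammatory genes of the vessel wall were less uniform. Of 22 genes of leukocyte adhesion and chemokines in the files only 9 passed the count minimum, and Cxcl10 and Il1b were the 2 past 2-fold, both from few reads and past the minimum in the Cx30-/- library alone (Il1b 58.7, 24.8 and 32.3 normalized counts). Vcam1 was at 0.60 and Icam1 at 0.35, while Tnf, Il6 and Cxcl2 had at most 6 reads in any library. Cx3cl1, a chemokine of neurons, was at -0.56.

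Tissues that border the vessels differed in their own ways. Of 17 genes of ciliated ependymal cells, which line the ventricles, all had a ratio above 0, with a median of 0.78. At least 2-fold higher were 4, or 3 of the 16 with at least 50 normalized counts in both libraries. The axonemal dynein gene Dnah11 had 1603, 736 and 830.4 normalized counts and Cfap44 3055, 1407 and 1292, and here the C57BL6 WT values lay beside those of C57BL6-BALB/c WT. Of 18 choroid plexus genes, 0 passed 2-fold and the median was 0.50, but the C57BL6 WT library stood above both others. Ttr, the thyroxine carrier secreted by the plexus, had 71366, 52930.5 and 137637. Of 7 measured genes of the pituitary list, 4 were lower in Cx30-/- vessels, namely Cga, Fshb, Prl and Chgb, and 2 of these, Cga and Fshb, passed the minimum in the C57BL6-BALB/c WT library alone. Chgb had 2584, 5994 and 4225 normalized counts, a log2 ratio of -1.21, and unlike Cga, Fshb, Prl and Gh it was high in C57BL6 WT vessels too. Cga, the common subunit of the glycoprotein hormones, had 5, 518 and 2 reads, Fshb 5, 140 and 0, and Prl, prolactin, 78, 684 and 0. The log2 ratios were -6.74, -4.85 and -3.17. Gh, growth hormone, had 569, 1008 and 6.11 normalized counts, a log2 ratio of -0.83 that did not pass 2-fold. Transcripts of the hormone genes Cga, Fshb, Prl and Gh were thus highest in C57BL6-BALB/c WT vessels, intermediate in Cx30-/- vessels for Gh and Prl, and at or near 0 in C57BL6 WT vessels. Lhb, another hormone subunit, had 209.8, 196 and 121, and the hormone precursor gene Pomc had 185, 213 and 114.

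Immediate early genes, which respond to stimuli within minutes to hours, went both ways, with 4 of 30 at least 2-fold higher and 6 lower. Jun, a subunit of the AP-1 factor, had 5214, 1351 and 3693 normalized counts, a log2 ratio of 1.95 (1.86 to 2.04). Klf2 on chromosome 8 (72319033 to 72321656), the flow-responsive factor of endothelium, had 8296, 2264 and 7179, a log2 ratio of 1.87. The phosphatase gene Dusp1 (1.33) and Atf3 (1.13) were the other higher genes. Among the lower ones, Fosb, a partner of Jun in AP-1, had 515, 6509.9 and 840.0, a log2 ratio of -3.66 (-3.80 to -3.53). Npas4, a factor induced by calcium influx in neurons, had 1711, 11642 and 2295, a log2 ratio of -2.77 (-2.84 to -2.69). For Fosb and Npas4, Cx30-/- and C57BL6 WT vessels lay near each other and C57BL6-BALB/c WT vessels far above both. Dusp5 (-1.73), Egr3 (-1.60), Egr2 (-1.46) and Egr4 (-1.33) were the remaining lower genes, whereas Egr1 was at -0.40, Fos at -0.68 and Nr4a1 at -0.43.

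Of 19 clock genes, 16 had a ratio below 0, with a median of -0.35, and Per2 alone was at least 2-fold lower. Per2, a repressor of the clock, had 1535, 3935 and 1822 normalized counts, Per3 3199, 5865 and 2985 and the output factor gene Dbp 1775, 3010.3 and 1125. Arntl, whose product drives these genes, was at 0.13. Of 19 glucocorticoid-responsive genes, Lcn2 and Ddit4 (1.12) were higher and 0 lower. Fkbp5 (-0.31) and Sgk1 (0.19), classical targets of the receptor, lay on opposite sides of 0. None of 16 heat shock and chaperone genes passed 2-fold, with Hspa1a below the count minimum at 36, 21 and 19 reads and Hspa5 at -0.42.

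In the list of fatty acid oxidation and ketone use, 3 of 22 were higher and 0 lower. Mlycd on chromosome 8 (119394878 to 119411102) encodes malonyl-CoA decarboxylase, which removes the inhibitor of fatty acid entry into mitochondria. It had 4079.8, 778 and 771 normalized counts, a log2 ratio of 2.39 (2.28 to 2.51), and both WT libraries were alike. Acacb, the acetyl-CoA carboxylase that makes malonyl-CoA at mitochondria, had 2320.5, 1026 and 1734, with the C57BL6 WT value nearer to Cx30-/- vessels. Cpt1a, the step that malonyl-CoA inhibits, was at 0.50. The cholesterol synthesis list had a median of -0.01, with 0 of 19 past 2-fold. Of 20 hypoxia genes, Car9 (1.54) and Adm (1.08) were higher, and Ldha and Pgk1 were at 0.65 and 0.27. Of 15 glycolysis genes, Gapdh and Eno1 were lower (152, 336 and 217 and 494, 1043 and 636). Both have many processed copies in the genome, and reads matching more than once were removed, so that their levels are uncertain. In the cell cycle list, where 11 of 21 genes in the files passed, Mcm6, a subunit of the replicative helicase, had 518, 99.4 and 420.0, and Bub1b 55.6, 19.4 and 275, while Mki67 had 78.7, 78.8 and 80.3. Of the 10 cell cycle genes with at least 50 normalized counts in both libraries compared, 1 was at least 2-fold higher.

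Mitochondrial transcripts were higher. All 7 messenger RNAs of the mitochondrial genome that were measured passed 2-fold, with log2 ratios from 1.14 for mt-Nd5 to 1.29 for mt-Cytb. mt-Cytb, a core subunit of complex III, had 255560 (Cx30-/-), 104733 (C57BL6-BALB/c WT) and 134499 (C57BL6 WT) normalized counts. The ribosomal RNAs mt-Rnr1 and mt-Rnr2 were at 0.51 and 0.50. Rows of the mitochondrial chromosome took 1.55% of all counts in Cx30-/-, 0.630% in C57BL6-BALB/c WT and 0.925% in C57BL6 WT vessels. Nuclear genes of the respiratory chain had a median of 0.35, with 0 of 27 past 2-fold, and ribosomal protein genes one of 0.32, with 0 of 23. Both nuclear lists hold short transcripts, and short transcripts had higher ratios than long ones. The mitochondrial messenger RNAs measured, of 519 to 1824 bases, are short as well.

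The genes with the largest ratios came from several of these groups. Among protein-coding genes with at least 50 normalized counts, the 10 highest included Ambp (58, 6 and 14 reads), Tnfsf8 (74, 10 and 31 reads), Ang (117, 17 and 242 reads), Fam124b (67, 10 and 101 reads) and Olah (57, 9 and 17 reads), besides Lcn2, Gp9, S100a8 and Ppbp. Most of these rest on few reads, and the interval of Ambp ran from a log2 ratio of 2.02 to 4.74. With at least 1000 normalized counts, the highest were Lcn2, Mlycd, the beta-globin genes, Tmem252, Lrg1, Alas2, Jun, Klf2 and Cp. Cp, ceruloplasmin, an iron-oxidizing and acute phase protein, had 9214, 2552 and 6961, a log2 ratio of 1.85. At the lower end were Gjb6, Fosb, Npas4, the pituitary hormone genes, Igsf23 (8, 60 and 6 reads), Trpc5 (14, 81 and 53 reads), Pnma2 and Ptk2b. Add2, a membrane skeleton protein (333, 1264 and 714), Kcnv1 (318, 1195 and 686), the granule protein gene Scg2 (1353, 4785 and 2967) and Unc13a, which primes synaptic vesicles (2648, 9018 and 5004), were the other neuronal genes among the lowest with at least 1000 normalized counts. Cwc22, a splicing factor with a C57BL6 WT value far below both others, had 410.2, 1507 and 37.5.

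**Figure D4:**
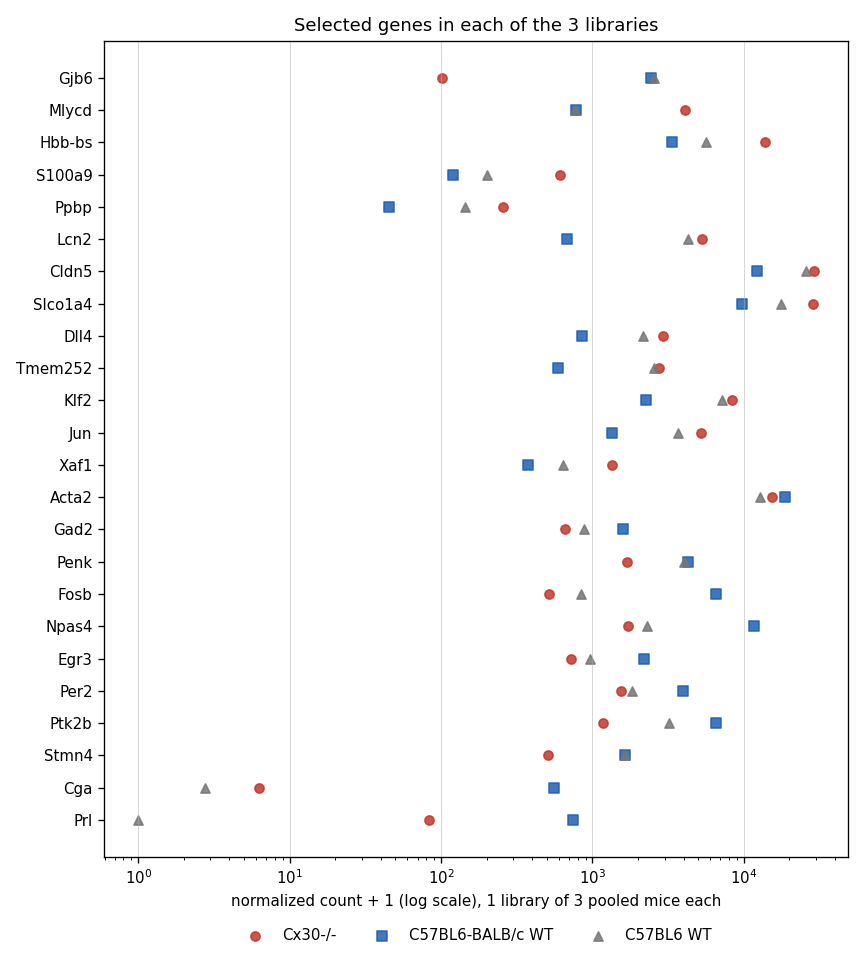
Normalized counts plus 1 (log axis) of 24 genes in the Cx30-/- (circles), C57BL6-BALB/c WT (squares) and C57BL6 WT (triangles) libraries, 1 library of 3 pooled mice each. For Gjb6 and Mlycd the WT libraries lie together and Cx30-/- apart, whereas for Fosb, Npas4, Klf2 and Lcn2 the C57BL6 WT value lies beside that of Cx30-/- vessels.

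The lower genes Ptk2b, Trim35, Stmn4 and Pnma2 lie close together on chromosome 14, the chromosome of Gjb6, between 66153257 and 66921023. They were singled out after their values were seen. Of the 6 genes compared in this stretch, these 4 were at least 2-fold lower and 0 higher, and Adra1a and Dpysl2 were at -0.72 and -0.19. Ptk2b, a calcium-activated kinase of neurons, had 1172, 6515 and 3189.8 normalized counts, a log2 ratio of -2.48 (-2.57 to -2.38), Stmn4 had 509, 1646 and 1635 and Pnma2 259, 1775 and 390.3. On the whole of chromosome 14, 24 of 472 genes (5.08%) were higher and 27 (5.72%) lower, beside 3.96% and 4.73% over all genes.

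Transcript length moved with the ratios. The median transcript length was 2172 bases for the higher genes and 3295 for the lower, against 2809 over all genes compared, while their GC contents were alike (50.2%, 50.2% and 50.5%). In the shortest of 10 groups of equal size (59 to 1024 bases), 7.11% were higher and 5.37% lower, with a median log2 ratio of 0.26. In the longest group, 1.54% were higher and 8.19% lower, with a median of -0.24. When each gene was set against the genes of its own length group, the endothelial median was 0.92, the neuron median -0.79, that of the glutamate and GABA receptors -0.83, and that of the interferon list 0.79. The respiratory chain median went from 0.35 to 0.13. The part of RNA quality in these ratios was not tested. Over 1482 transcripts of at least 5000 bases, the median share of bases without a read was 4.16% in Cx30-/-, 3.68% in C57BL6-BALB/c WT and 3.77% in C57BL6 WT vessels.

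**Figure D5:**
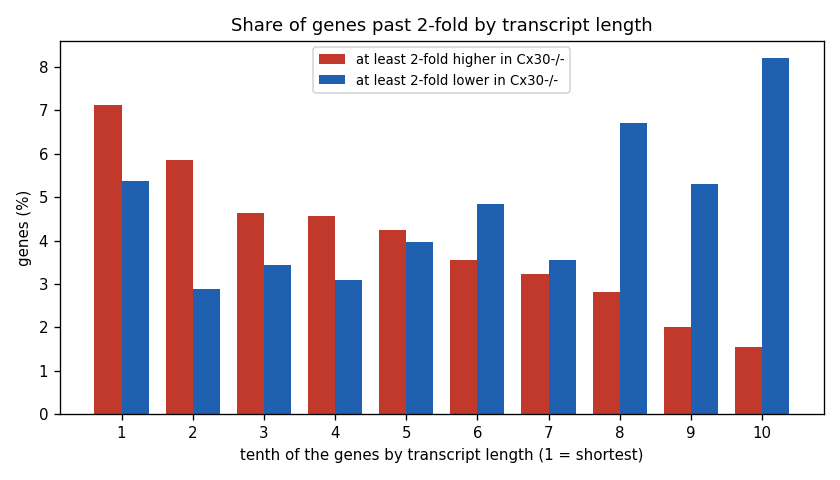
Percent of genes at least 2-fold higher (red) and at least 2-fold lower (blue) in Cx30-/- than in C57BL6-BALB/c WT vessels, for 10 groups of the 14891 genes ordered by transcript length from shortest to longest. Higher genes go from 7.11% in the shortest to 1.54% in the longest group, and lower genes reach 8.19% in the longest.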

How the data were processed

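The authors purified polyadenylated RNA, prepared libraries that do not keep the strand and sequenced them. The submitters' processing notes name CASAVA 1.8.2, Bowtie and the assembly mm10, and the study's methods add trimming and the removal of reads matching more than once. For each of 82813 Ensembl transcripts, the authors deposited the raw count of alignments on its exons, the same count as a fraction of a library total, the transcript length and its bases without a read. The library totals behind the fractions were 20654144 for Cx30-/-, 21170766 for C57BL6-BALB/c WT and 24830975 for C57BL6 WT. They were not used for scaling, and an alternative scaling took the summed counts of the genes in each library instead. Positions in the files run past the end of chromosome 1 in GRCm38, so their build was not settled, and coordinates are those of GENCODE M21 found by transcript identifier, which named 69379 transcripts, and the 13434 others were left out of the gene comparison.

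Each gene took its transcript row with the largest count over the 3 libraries. Median-of-ratios size factors were 0.953, 0.926 and 1.145, and 3 reads equal 3.15, 3.24 and 2.62 normalized counts. Ratios carry no pseudocount, and their intervals are exact (Clopper-Pearson, scipy 1.17.1). edgeR 4.0.16 in R 4.3.3 gave TMM factors for an alternative. The steps were checked on counts drawn with known ratios. Gene lists of cell classes and functions are described by counts and medians. Named were Gjb6, the 10 highest and 10 lowest ratios (pseudocount 1) of protein-coding genes with at least 50 and with at least 1000 normalized counts, and in each list up to 5 genes past 2-fold in each direction and 3 with the most counts. Other genes were named after their values were seen. The members and lists were chosen with earlier results of these data known, and some genes and 1 list are not reported here. Strand was not kept, so reads of a gene and an antisense neighbour cannot be told apart.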

Additional observations from a re-analysis of the deposited data

Results flagged for a closer look

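Outside the genes compared, 13434 transcript rows had no entry in GENCODE M21 and so no gene name. They drew attention because they hold signal that the comparison did not use. Of the 7450 that passed the same count minimum, 226 (3.03%) were at least 2-fold higher in Cx30-/- than in C57BL6-BALB/c WT vessels and 557 (7.48%) at least 2-fold lower, beside 3.96% and 4.73% for the named genes. Several rows can belong to 1 gene, so these are not counts of genes.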

How the results depend on the processing

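The numbers of 589 higher and 705 lower genes depended mostly on the thresholds. A ratio of 1.5 gave 2106 and 2204, a ratio of 4 gave 48 and 37, intervals wholly past 2-fold 229 and 317, and no count minimum 1285 and 1697, while a minimum of 200 left 340 higher and 485 lower genes. Other scalings, a pseudocount of 1, a minimum in both libraries, summed or longest rows, and centring on transcript length, chosen after the data were seen, kept both counts within 1.5 times, between 408 and 718 higher and between 554 and 773 lower. The share of higher among called genes was 45.5% as reported, 55.1% when scaled by the summed gene counts of each library and 56.5% at a ratio of 4. Of 349 named genes, 0 that passed 2-fold changed sign under any other scaling, pseudocount, choice of rows or length centring tried. Scalings, the pseudocount and length centring moved ratios too little to turn such a sign, so only the choice of rows could have done so. The ratio left its own counting interval for 157 of the 349 genes under length centring. It did so for 98 when scaled by the summed gene counts. No paired analysis was possible because each group has 1 library, and for the same reason no library could be left out. At these depths, genes with few reads have wide intervals, and counting error is the only error measured.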

Other observations

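Non-coding transcripts were not part of the lists. Of 102 lincRNA genes, 20 were at least 2-fold lower and 4 higher in Cx30-/- than in C57BL6-BALB/c WT vessels, and of 46 snoRNA genes 13 were lower and 0 higher, beside 4.73% lower and 3.96% higher over all genes. In libraries of polyadenylated RNA, counts on a snoRNA gene can come from its host transcript, so these are not levels of mature snoRNA. The snoRNA genes with the lowest ratios, Gm25187 (8, 79 and 39 reads, log2 ratio -3.35) and Gm25129 (16, 115 and 59 reads, -2.89), lie within Snhg11 on chromosome 2. Snhg11 is a member of the neuron list. Among the other lower genes, Meg3 and the snoRNA genes Gm24895, DQ267100 and Gm23508 lie in the imprinted region around Meg3 on chromosome 12. Meg3, a long RNA made from the maternal copy and abundant in neurons, had 208298 (Cx30-/-), 421556 (C57BL6-BALB/c WT) and 266919 (C57BL6 WT) reads, a log2 ratio of -1.06. All 11 genes compared from the start of Dlk1 (109452823) to the end of Mir410 (109743795) had ratios below 0, with a median of -1.06, and 6 were at least 2-fold lower. They included Mir770 inside Meg3 (903, 2873 and 1336 reads), Mir410 (100, 217 and 137 reads) and the snoRNA gene Gm24895 (202, 587 and 396 reads), while Dlk1 (85, 125 and 159 reads) and Rtl1 (653, 1067 and 972 reads) lay below 2-fold. The region was chosen after its values were seen.

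In libraries of polyadenylated RNA, counts on a microRNA gene come from its primary or host transcript and not from the mature microRNA. With that limit, Mir126a, which lies within the endothelial gene Egfl7, had 84, 33 and 50 reads (log2 ratio 1.31). Mir132 and Mir212, which neurons induce with activity, had 36, 112 and 88 and 18, 61 and 30 reads (log2 ratios -1.68 and -1.80).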
